A study of Mus musculus with 2 samples.

Results

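The microRNA (miRNA) genes of imprinted loci outside the large Dlk1-Dio3 region were measured in mouse hippocampus: Mir335 of the Mest locus, Mir296 and Mir298 of the Gnas locus, Mir483 of the Igf2 locus and Mir675 of the H19 locus. They were selected by gene name in the GENCODE M21 annotation, and they are 5 of the 2202 miRNA genes in the tables. The rule itself uses no measured value, but it was chosen with earlier results of these data known. Small RNA came from wild-type hippocampus of adult mice at 6 months, strain B6NCrl of the C57BL/6 background. The labels call the tissue a layer of hippocampus without naming the layer, and call it male although their sex field gives no sex. There was 1 group of 2 libraries, numbered as biological replicates 1 and 2, with no treatment and no other genotype, so the series compares no conditions. The donor identifier is the same for both libraries, and nothing states that they came from separate animals. The spread between them may therefore be technical, and a p-value for a difference between replicates compares the reads of 2 libraries and not conditions.

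An imprinted gene is expressed from the allele of a single parent. Mest, which encodes an enzyme of the hydrolase family, and Igf2, which encodes a fetal growth factor, are expressed from the paternal allele in most tissues, and the noncoding H19 is expressed from the maternal allele. Gnas encodes a stimulatory G protein subunit and has several imprinted transcripts, among them the antisense noncoding Nespas. A miRNA is cut from a hairpin RNA as a short strand from either arm, and it recognises target messages mainly through its seed, bases 2 to 8. The counts used here are per hairpin gene, so they separate neither the arms nor the parental alleles, and the messages of the host genes were not measured.

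All 5 genes were matched by symbol in the RefSeq miRNA table (GRCm38.p6), whose hairpins had the same coordinates and the same sequence as the M21 transcripts. The 10 mature strands are shown because they are what the reads of each gene come from, written 5′ to 3′ with the seed in capitals.
miR-335-5p: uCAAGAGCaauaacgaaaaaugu
miR-335-3p: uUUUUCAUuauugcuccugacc
miR-296-5p: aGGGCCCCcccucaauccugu
miR-296-3p: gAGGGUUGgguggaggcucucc
miR-298-5p: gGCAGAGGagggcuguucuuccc
miR-298-3p: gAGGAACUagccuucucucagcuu
miR-483-5p: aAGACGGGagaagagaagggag
miR-483-3p: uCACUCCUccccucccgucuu
miR-675-5p: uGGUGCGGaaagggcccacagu
miR-675-3p: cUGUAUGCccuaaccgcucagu
The 10 strands carried 10 distinct seeds, so these genes share an imprinted setting but no seed family. No seed was found in another named mature miRNA of the table, as was the case for 72.1% of its 1679 names. No hairpin shared a stretch of 20 bases with any other hairpin of the tables, whereas 49.2% of the 2202 hairpins did share one. This bears on the counts, because a read that matched several places was given to no gene. Sequence elsewhere in the genome was not compared.

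The replicate 1 library held 11106392 reads, of which 4247092 were counted on miRNA genes, and the replicate 2 library held 12627039, of which 5041568 were counted. Levels are CPM, counts scaled to the library's counted reads, with exact 95% binomial (Clopper-Pearson) intervals, and detected means a level of at least 10 CPM in each library. Intervals and limits cover counting error only, since copies made by PCR were not marked as such. The tissue label was set beside neuron miRNA genes, which mark a cell type and not a brain region, so they cannot decide it. Of 14 such genes 11 were detected, led by Mir139 and Mir132. The 3 that were not detected are the Mir124a-1, Mir124a-2 and Mir124a-3 copies of miR-124, a defining neuron miRNA, with 0 to 8 counts per library, and reads that matched several places are missing from these counts. The choroid plexus and ependyma list, tissue that borders the hippocampus, had the largest ratio between the sums of the libraries among the 8 marker lists, with 11419 CPM in replicate 1 and 3470.1 CPM in replicate 2.

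Of the 5 genes, 4 were detected and Mir675 had no count, against 302 of all 2202 genes detected (13.7%). The comparison is uneven, because 49.2% of all hairpins shared a stretch of 20 bases with another and these 5 did not. Reads that matched several places were counted for no gene. Ranks among all genes, given below, carry the same limit. Together they held 0.155% of the counted reads in replicate 1 (interval 0.151 to 0.159%) and 0.193% in replicate 2 (0.190 to 0.197%). Mir298 supplied most of that, with 78.2% of the summed counts in replicate 1 (interval 77.2 to 79.2%) and 74.9% in replicate 2 (74.0 to 75.7%). The plot of levels by gene and library shows this order.

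**Figure D1:**
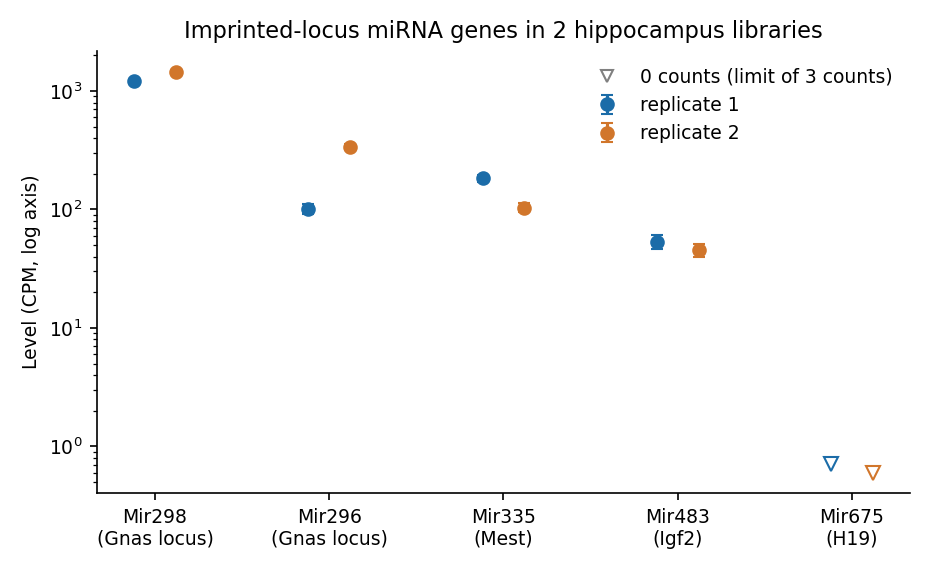
Level of each gene in CPM on a log axis (vertical), with 1 point per library and exact 95% binomial intervals as bars, most of them smaller than the points. Mir298 stands above 1000 CPM in both libraries, Mir296 and Mir335 change places between them, and Mir675, at 0 counts, is drawn as an open triangle at the level of 3 counts.

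The Gnas locus gave the highest level. Mir298 (ENSMUSG00000065410.1, chr2:174267504-174267585, minus strand) encodes a miRNA known in mouse to act on the message of the beta-secretase gene Bace1. It had 5151 counts in replicate 1 and 7296 in replicate 2, which are 1213 CPM (interval 1180 to 1246) and 1447 CPM (1414 to 1481). Both libraries were high, and its mean of 1330 ± 166 CPM (SD, n = 2) was rank 82 of 2202 genes. Mir296 (ENSMUSG00000065521.1, chr2:174267047-174267125, minus strand), whose product is known from endothelial cells and vessel growth, had 427 counts in replicate 1 and 1702 in replicate 2. These are 100.5 CPM (interval 91.2 to 111) and 338 CPM (322 to 354), with a mean of 219 ± 168 CPM (SD, n = 2). Replicate 2 was the high library, and the SD was close to the mean in size.

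In M21 neither hairpin lies inside another gene. On the same strand, Mir298 lies 13.651 kb beyond the annotated end of Nespas, and Mir296 follows Mir298 after a gap of 378 bases. Gnas starts 16.735 kb from Mir298 on the opposite strand. Both hairpins are shown because they lie so close together on the same strand, with the mature strands in capitals.
Mir298: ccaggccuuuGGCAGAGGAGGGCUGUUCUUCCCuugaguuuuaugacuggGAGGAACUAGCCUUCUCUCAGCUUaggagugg
Mir296: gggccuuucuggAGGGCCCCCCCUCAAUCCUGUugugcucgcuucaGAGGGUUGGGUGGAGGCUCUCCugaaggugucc
The hairpins were 82 and 79 bases long, and the G and C content was 53.7% for Mir298 and 63.3% for Mir296.

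Mir335 (ENSMUSG00000065501.1, chr6:30741299-30741396, plus strand) lies in an intron of all 7 Mest transcripts that span it, 17.752 kb from the start of the gene. It had 781 counts in replicate 1 and 521 in replicate 2, or 184 CPM (interval 171 to 197) and 103 CPM (94.7 to 113). Here replicate 1 was the high library, and the mean was 144 ± 57.0 CPM (SD, n = 2), rank 177 of all genes.

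The Igf2 and H19 genes lie side by side on chromosome 7 and share an imprinting control region, and their miRNA genes gave different counts. Mir483 (ENSMUSG00000070140.1, chr7:142654924-142654996, minus strand) lies in an intron of all 7 Igf2 transcripts that span it and in an intron of the overlapping gene Gm49394. It had 227 counts in replicate 1 and 228 in replicate 2, or 53.4 CPM (interval 46.7 to 60.9) and 45.2 CPM (39.5 to 51.5). The intervals of the libraries overlap, and the mean of 49.3 ± 5.82 CPM (SD, n = 2) was rank 230.

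Mir675 (ENSMUSG00000076275.1, chr7:142577064-142577147, minus strand) overlaps an exon in 3 and an intron in 1 of the 4 H19 transcripts that span it, and is separated from Mir483 by 77.776 kb. H19 is strongly expressed in the embryo and falls in most tissues after birth, with skeletal muscle as a known exception. Mir675 had 0 counts on its strand in both libraries. The limit for such a count was set at 3 counts, which is 0.706 CPM in replicate 1 and 0.595 CPM in replicate 2. On the opposite strand 1 read was counted in replicate 1 and 0 in replicate 2. The hairpin is shown because the count of 0 concerns reads of this sequence, with the mature strands in capitals.
Mir675: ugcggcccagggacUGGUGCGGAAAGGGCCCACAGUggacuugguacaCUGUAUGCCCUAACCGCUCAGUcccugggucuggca
With Mir675 set to the 3-count limit in each library, the counts of Mir483 were 75.7 times that limit in replicate 1 and 76.0 times in replicate 2. Of all 2202 genes, 1403 (63.7%) likewise had no count in either library. Of 9 muscle miRNA genes, 1 was detected, Mir206 at 116 and 42.6 CPM in replicates 1 and 2, and 5 had no count in either library (Mir1a-2, Mir133a-1, Mir133a-2, Mir208a and Mir208b). Reads that matched several places are missing from these counts, so a count of 0 for such copies cannot show that muscle miRNAs were absent.

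The predicted folding of the hairpins was described for all genes with RNAfold. The minimum free energy per base was −0.667 kcal/mol for Mir675, lower (more stable) than for the other 4 and among the lowest 1.32% of the 2202 hairpins. It was −0.547 for Mir296, −0.521 for Mir298, −0.463 for Mir483 and −0.452 for Mir335, against a median of −0.369 over all hairpins and −0.439 over the 302 detected ones. All 5 thus lay below both medians, and the order of stability was not the order of the levels.

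The order of levels was tested within each library by comparing the counts of each pair of genes in an exact binomial test (two-sided), with Benjamini-Hochberg adjustment over 20 tests. The test compares counts of reads, and how evenly different miRNAs entered a library was not measured. It therefore cannot decide the order of their amounts in the tissue. Replicate 1 gave Mir298, Mir335, Mir296, Mir483 and Mir675 from high to low, and replicate 2 gave Mir298, Mir296, Mir335, Mir483 and Mir675. Every pair differed within each library beyond counting error, and the largest adjusted p was that of Mir296 over Mir483 in replicate 1, at 1.88-fold (interval 1.60 to 2.22, adjusted p = 4.41e-15 by the exact test). Mir335 exceeded Mir296 1.83-fold in replicate 1 (interval 1.62 to 2.06), and Mir296 exceeded Mir335 3.27-fold in replicate 2 (2.96 to 3.61). Their order therefore did not hold across the libraries, while the places of Mir298, Mir483 and Mir675 did. Levels per 100 bases of hairpin gave the order of the means, with 1622 CPM for Mir298, 277 CPM for Mir296, 147 CPM for Mir335 and 67.6 CPM for Mir483. The hairpins were 73 to 98 bases long, too alike for this scaling to change the order, so it is no check on it.

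The second comparison asked which of these genes differed between the replicate libraries. For each gene the counts were compared in an exact binomial test (two-sided), over the 522 genes with at least 10 counts in sum, with Benjamini-Hochberg adjustment over all of them and a threshold of 0.05. Of the 4 genes tested, 3 passed, beside 51.0% of all genes tested and 80.4% of the 179 genes with a mean of 40 to 2000 CPM, so a call by itself is common at these depths. Mir296 and Mir298 were higher in replicate 2, as were 28.2% of genes, and Mir335 was lower, as were 22.8%. The median log2 ratio of replicate 2 over replicate 1 was 0.01 over the 4 genes and 0.09 over the 522 genes.

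The sizes of the differences were unequal. The Mir296 level was 3.35-fold higher in replicate 2, a log2 ratio of 1.75 (interval 1.59 to 1.90, adjusted p = 2.79e-134 by the exact test), and 30 of the 522 genes (5.75%) lay at least as far apart. The Mir335 log2 ratio was −0.83 (interval −0.99 to −0.67, adjusted p = 3.35e-24 by the exact test), so that its level was 1.78-fold higher in replicate 1, and 24.1% of genes lay at least as far apart. Mir298 had a log2 ratio of 0.25 (interval 0.20 to 0.31, adjusted p = 8.63e-22 by the exact test), a 1.19-fold difference that most tested genes (67.4%) equalled or exceeded. Mir483 did not pass, with a log2 ratio of −0.24 (interval −0.51 to 0.03, adjusted p = 0.137 by the exact test). The interval for Mir483 includes no difference, and also a fall of up to 0.51 on the log2 scale. With TMM scaling in place of library totals Mir483 passed as lower (log2 ratio −0.31, adjusted p = 0.0426 by the exact test), so its call depends on the scaling. Mir675 had no counts to test.

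**Figure D2:**
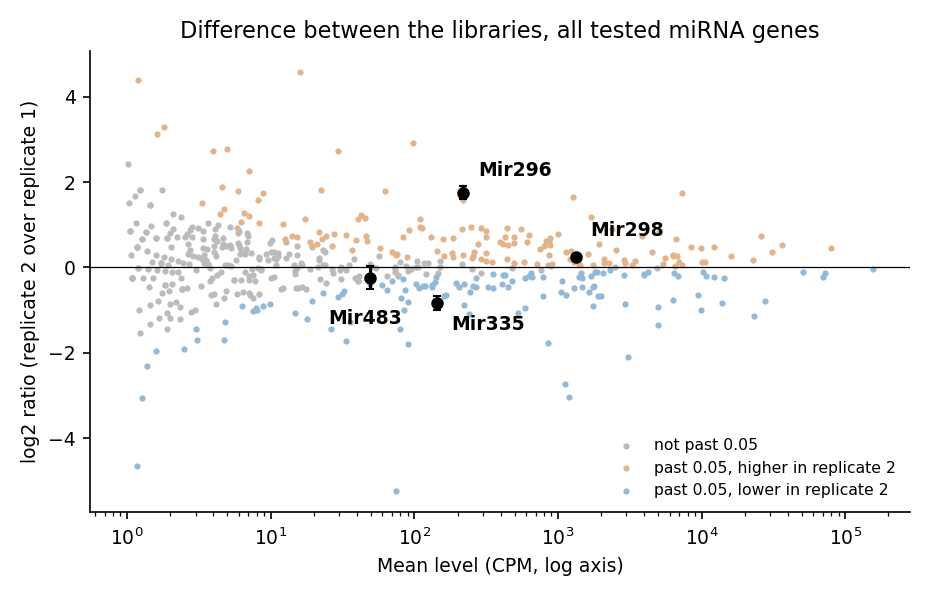
Log2 ratio of replicate 2 over replicate 1 (vertical) against mean level in CPM on a log axis (horizontal) for the 522 genes tested, coloured by whether the adjusted p was past 0.05 and in which direction. The 4 named genes are black with exact 95% intervals: Mir296 lies near the upper edge of the cloud at 1.75, Mir335 at −0.83 lies in its lower part, and Mir298 and Mir483 lie near 0.

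Marker lists that differed between the same libraries were measured alongside. Of the 9 genes that mark choroid plexus and ependyma, 8 had a count and Mir449b was at 0. Of the 7 tested, 5 passed as lower in replicate 2, led by Mir204 and Mir1298, and Mir449a passed as higher. This list and Mir335 were both lower in replicate 2. The list summed to 3.29 times as much in replicate 1 as in replicate 2. Among the other marker lists this ratio was 2.51 for muscle, 1.32 for pituitary and endocrine, and 1.12 for neuron. It was 0.964 for vascular, 0.831 for liver, 0.788 for erythroid and 0.662 for oligodendrocyte. Of 13 neuron genes tested, 6 passed as lower and 3 as higher in replicate 2. Mir483, whose host Igf2 is known to be expressed in choroid plexus and meninges, had a log2 ratio of −0.24. With library totals that ratio did not pass the threshold, and 70.1% of tested genes lay at least as far apart. The oligodendrocyte list had sums of 5817 and 8786 CPM in replicates 1 and 2. Of its 4 genes, Mir219b was at 0, Mir219a-2 and Mir338 passed as higher and Mir219a-1 did not pass. Most of the rise in the sum was that of Mir219a-2, at 3630 and 6444 CPM in replicates 1 and 2. Mir338 stood at 2175 and 2333 CPM, and Mir219a-1 at 11.3 and 9.72 CPM. The vascular list, led by Mir126a and Mir143, summed to 8456 and 8769 CPM, with Mir126a passing as higher and Mir143 and Mir145a as lower in replicate 2. The part of any of these cell types in the ratios of Mir335, Mir296 or Mir483 was not tested. Adapters were trimmed under protocols whose version differs between replicates, per the labels, so the version and the replicate cannot be told apart.

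The genes nearest to each in level over the 2 libraries, by distance in log2(CPM + 1), were then listed. For Mir296 they were Mir200b (93.005 and 345 CPM in replicates 1 and 2) and Mir183 (109.0 and 327 CPM), which are known from epithelial and sensory cells. For Mir298 they were Mir668 of the Dlk1-Dio3 region (1218 and 1504 CPM) and Mirlet7c-2 (1225 and 1347 CPM). Mir335 stood nearest to Mir384 (154 and 112 CPM) and Mirlet7f-1 (199 and 125 CPM), at distances of 0.28 and 0.30, further than the nearest genes of the other 3. Mir483 stood nearest to Mir669l of the Sfmbt2 cluster (53.4 and 43.6 CPM) and Mir551b (55.6 and 42.6 CPM). With 2 libraries this describes levels and no shared pattern.

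The Gnas pair allowed a closer look, because its hairpins lie so close together on the same strand. This comparison was chosen after their values were seen. Mir298 had 12.1 times the counts of Mir296 in replicate 1 (interval 10.9 to 13.3) and 4.29 times in replicate 2 (4.07 to 4.52). A gap in level of this size is not particular to the pair. Mir132 had 33.0 times the counts of its neighbour Mir212 in replicate 1 and 23.9 times in replicate 2. The ratio of Mir298 to Mir296 differed 2.81-fold between the libraries, a difference of log2 ratios of 1.49 (p = 3.73e-84 by Fisher's exact test, two-sided). This difference does not depend on library scaling. The same measure was taken for all 50 pairs of neighbouring hairpins on 1 strand with a gap of at most 1 kb and a mean of at least 100 counts per gene. By Fisher's exact test 82.0% of the pairs passed 0.05 after Benjamini-Hochberg adjustment over them, and the median difference was 0.369. Mir296 and Mir298 had the largest of the 50 differences, by a narrow margin. They were followed by Mir411 and Mir299a at 1.47, Mir381 and Mir487b at 1.40, and Mir99b and Mirlet7e at 1.38.

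**Figure D3:**
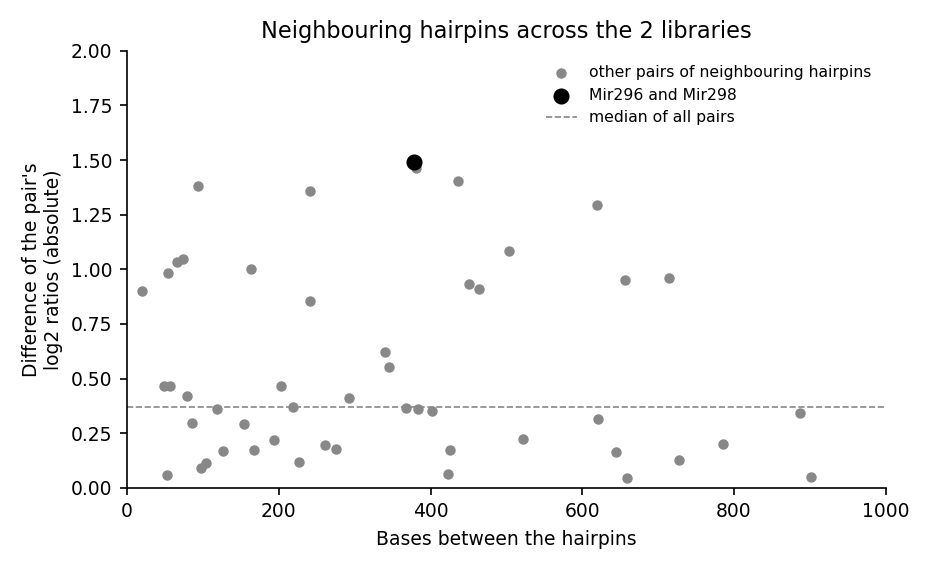
Absolute difference between the log2 ratios (replicate 2 over replicate 1) of neighbouring hairpins (vertical) against the bases between them (horizontal), 1 point per pair for 50 pairs. Mir296 and Mir298, in black at 378 bases and 1.49, lie at the top beside a few other pairs, and the dashed line is the median of 0.369.

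Other miRNA genes of imprinted or neighbouring loci were counted for comparison, without a test of the difference between lists. On chromosome 12, 46 of 66 genes of the Dlk1-Dio3 region were detected, led by Mir127 (50774 ± 2462 CPM) and Mir770 (14429 ± 1721 CPM), both far above Mir298. In that region 23 of 51 tested genes passed as higher and 15 as lower in replicate 2, with a median log2 ratio of 0.02. Of 13 genes named Mir344, which lie on chromosome 7 near the region orthologous to the Prader-Willi region, 2 were detected. They were Mir344d-3 (41.1 ± 4.20 CPM) and Mir344b (33.5 ± 12.1 CPM), both below Mir483, and of 5 tested genes 1 passed as higher and 1 as lower. Of 119 genes inside Sfmbt2, a gene with an imprinted miRNA cluster, 6 were detected and 103 had no count. They were led by Mir467d (397 ± 116 CPM) and Mir669c (186 ± 62.5 CPM), between Mir298 and Mir335 in level, and of 8 tested genes 3 passed as higher and 2 as lower. Counts of this cluster cover the reads that aligned to 1 place, and many of its hairpins are near-copies. Within 200 kb of the 5 genes the tables held 1 further miRNA gene, Gm27591 on the opposite strand near Mir296, with 0 counts in both libraries.

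**Figure D4:**
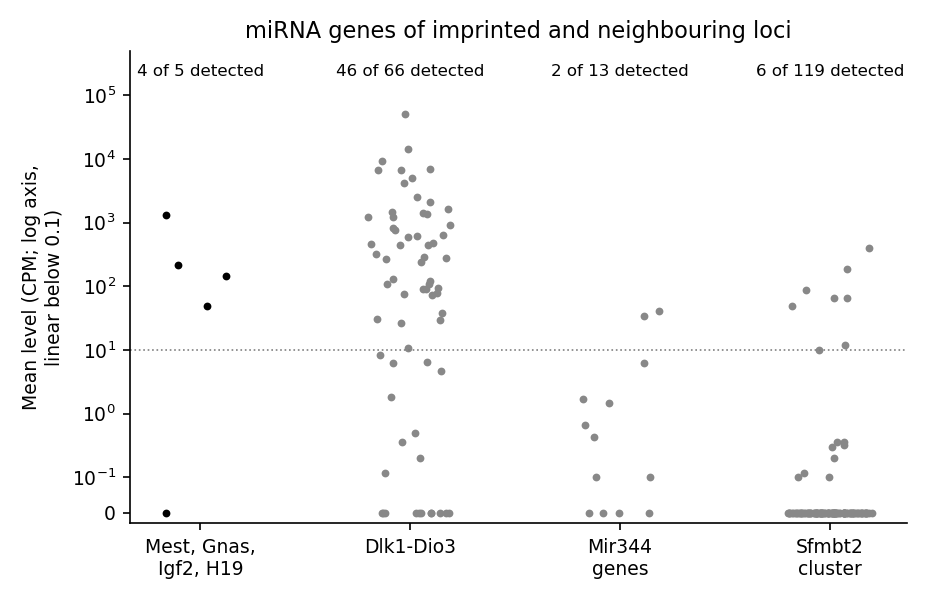
Mean level in CPM (vertical, log axis, linear below 0.1) of each miRNA gene of 4 sets, 1 point per gene, with the number detected above each set and a dotted line at 10 CPM. The genes of Mest, Gnas, Igf2 and H19, in black, lie within the range of the Dlk1-Dio3 genes, which reach 50774 CPM, and most Sfmbt2 genes lie at 0.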

How the data were processed

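Small RNA was sequenced in 2 libraries of 1 group. The authors deposited raw read counts per miRNA gene, not normalised, on mm10 with GENCODE M21, per the file headers. They used an aligner and a counter not given in the sources used here. From their sums, the 3 count columns were taken as without regard to strand, on the gene's strand and on the opposite strand; the second was used. Rows that name no gene were excluded from totals. In replicates 1 and 2 reads aligned to several places made up 43.8% and 45.7%, unaligned reads 15.1% and 11.4%, and reads outside miRNA genes 2.92% and 3.00%.

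All 2202 identifiers matched M21. Log2 ratios had 0.5 counts added. With 1 library on each side the quasi-likelihood test of edgeR could not be fitted, so exact binomial tests were used, tested on simulated data with known fold changes. Named genes were the 5 members, the 2 nearest genes in level to each, miRNA genes within 200 kb, and the 2 highest of each list. The rule for the members uses gene names, but it and the lists were chosen with earlier results of these data known. Alternatives were TMM and DESeq2 size factors, other totals, columns, filters and adjustments. Calls in the marker lists not detailed above were as follows. In the pituitary and endocrine list 3 of 4 tested genes passed as lower and 1 as higher in replicate 2. In the muscle list 1 of 2 passed as lower, and in the liver list 1 of 3 passed as higher. In the erythroid list 0 of 3 passed the threshold by the exact test, and 1 had an unadjusted p under 0.05. Python 3.11.15, numpy 2.4.6, pandas 2.3.3, scipy 1.17.1, matplotlib 3.10.9, R 4.3.3, edgeR 4.0.16, DESeq2 1.42.0 and RNAfold 2.7.2 were used.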

Additional observations from a re-analysis of the deposited data

How the results depend on the processing

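The calls of Mir296, Mir298 and Mir335 kept their direction and stayed past the threshold under TMM, DESeq2 size factors, all reads as the total, counts without regard to strand, 1 or no count added, no filter and Bonferroni adjustment. Mir483 passed as lower in replicate 2 under TMM (log2 ratio −0.31, adjusted p = 0.0426 by the exact test) and DESeq2 size factors (−0.32, p = 0.0427). It also passed when the median log2 ratio of all genes was taken as 0, a setting chosen after seeing the data (−0.33, adjusted p = 0.0334 by the exact test). Over its other 6 alternatives the adjusted p was 0.137 to 1.00. With all reads of a library as the total, mean levels in CPM were 55.8 for Mir335, 86.6 for Mir296, 521 for Mir298 and 19.2 for Mir483, because the total then also includes reads aligned to several places, unaligned reads and reads outside miRNA genes. Without regard to strand Mir675 had 0.126 CPM. Leaving out a library left 3 to 5 of the 5 genes in their place of the order of means. With 100 CPM as the minimum 3 genes were detected. No ratio can be formed from 1 library, so leaving out a library was not run for the ratios. No paired analysis was possible because the 2 libraries form a single group. At this depth Mir675 cannot be measured below the level of 3 counts.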
